A study of Mus musculus with 18 samples.

Results

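The comparison described here set Smn knockdown against empty vector in the somatodendritic compartment of cultured mouse motoneurons. Its members were 6 of the study's 18 arrays, 3 labelled Smn knockdown and 3 labelled empty vector. They were taken from the array labels and from no measured value. The somatodendritic compartment holds cell bodies and dendrites, and the axonal compartment of the same microfluidic chambers was measured on other arrays. Spinal cords of mouse embryos (E12.5) gave the motoneurons, which were enriched by panning on an antibody to p75, the low-affinity neurotrophin receptor. They were cultured for 7 days with CNTF (5 ng/ml) in both compartments and BDNF (20 ng/ml) in the axonal one. Knockdown cultures had received a lentivirus with an shRNA against Smn and empty vector cultures one without it, and the wild-type cultures, on 3 further arrays, no virus. RNA went through 2 rounds of linear amplification. The labels do not say whether the 3 arrays of a group stand for separate cultures, and the titles of the knockdown arrays follow another numbering than those of the controls.

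SMN protein is the core of a complex that loads Sm proteins onto the small nuclear RNAs of the spliceosome, and it also travels with messenger RNA in neuronal processes. Loss of SMN1 causes spinal muscular atrophy in people, in which spinal motoneurons degenerate. A culture of embryonic spinal cord also holds precursors, glia and a few microglia unless these are removed. Array values from such RNA are bulk values, so that fewer cells of a type and less RNA per cell cannot be told apart.

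The values were log2 expression levels, with 1 probe set per gene and 18191 genes. Between 10470 and 11369 genes lay above the background level on each of the 6 arrays. That level was taken from genes of absent tissues, as the 95th percentile of their probe sets on an array. The 3' minus 5' difference of the Gapdh probe sets, which grows as RNA is shortened, ranged from 3.99 to 4.12 in knockdown and 3.53 to 3.68 in empty vector arrays. For actin the groups lay next to each other without overlap, with 4.674 the lowest knockdown value and 4.669 the highest empty vector value. They overlapped for the other controls, with 1.90 to 1.97 against 1.77 to 1.95 for Tfrc and 1.03 to 1.15 against 1.01 to 1.49 for Pcx. The part of the Gapdh difference in the results was not tested. The target itself gave no check of the labels: Smn1 lay below background on all 6 arrays, at 4.99, 5.20 and 4.99 with the knockdown and 5.20, 5.02 and 5.38 with the empty vector.

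Marker genes gave the following picture of the cultures. All 6 pan-neuronal markers were above background in both groups, with mean levels over the list of 11.25 to 11.27 in knockdown and 11.24 to 11.35 in empty vector arrays. Of the 6, 2 fell and 0 rose. Map2, a dendritic microtubule protein, fell by 0.38 (limma adjusted p = 0.00609) and Rbfox3, the nuclear marker NeuN, by 0.57 (limma adjusted p = 0.000972). Tubb3, Stmn2, Snap25 and Elavl4 stood at 0.49, 0.21, 0.14 and 0.03 and were not called. The median of the list was 0.09. Against wild-type 2 of the 6 rose, Tubb3 by 1.05 and Stmn2 by 0.39, and 2 fell. Of 10 motoneuron markers, 7 (Chat, Slc18a3, Slc5a7, Mnx1, Isl1, Isl2 and Lhx3) were above background in no somatodendritic group. Prph, Ngfr and Ret were above it. Pou4f1, a transcription factor of sensory and some spinal neurons, averaged 11.34 with the knockdown and 11.18 with the empty vector (limma adjusted p = 0.441). The motoneuron identity in the labels thus rested here on Prph, Ngfr and Ret alone, and all pan-neuronal markers were above background.

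Glial, precursor and microglial markers differed between the groups. Over the astrocyte list 6 of 8 genes fell, and its mean level was 8.21 to 8.73 in knockdown against 8.91 to 9.13 in empty vector arrays. Over the oligodendrocyte lineage list 4 of 7 fell, with mean levels of 7.04 to 7.67 against 8.05 to 8.51. Over the neural progenitor list 2 of 6 fell (Sox2 and Notch1), with 9.15 to 9.45 against 9.65 to 9.81. None of the 8 fibroblast and meningeal markers passed the test. All 8 microglial markers rose, with mean levels of 7.57 to 7.94 against 5.65 to 5.88. In wild-type arrays that mean was 7.29 to 7.41, above the empty vector arrays and below the knockdown arrays. Against wild-type 4 of the 8 were called higher with the knockdown and 0 lower. Aif1 and Itgam were above background in no somatodendritic group, and 6 of the 8 were not above it with the empty vector. These ranges are to be set beside the gene groups described next, and their part in any of them was not tested.

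With limma fitted to the 9 somatodendritic arrays and Benjamini-Hochberg adjustment over all genes, 2267 genes (12.46%) were called higher and 2821 (15.5%) lower in knockdown than in empty vector arrays at an adjusted p under 0.05. When each array was centred on the genes above background the split turned to 2759 higher and 2336 lower, so the balance of rises and falls depends on the scaling. The uncentred shares over all genes, 12.46% and 15.5%, are set beside the lists that follow. With only the 10658 genes above background in either group fitted, 2057 were called higher and 2511 lower. The shares among such genes are thus larger. Interferon-induced genes and genes of microglia, macrophages and blood cells made up 237 of the higher and 9 of the lower calls. Outside them, 2030 genes rose and 2812 fell, and among these 142 rose and 329 fell at least 2-fold. The median difference over all genes was -0.02. Against the wild-type arrays 15.6% of genes were called higher and 20.4% lower with the knockdown. Empty vector differed from wild-type in fewer genes, with 0.484% called higher and 1.52% lower. The last 2 comparisons share arrays with the first. Calls between empty vector and wild-type numbered 364 in both directions, and 1408 without wild-type replicate 3. Later counts for empty vector against wild-type use all 9 somatodendritic arrays.

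Among the rises outside the interferon and microglial lists, those of Plin2, Cd300c2 and Ctsd were the 3 largest by the rule for named genes. That rule took only genes whose knockdown and empty vector arrays did not overlap. Plin2, which coats lipid droplets, stood at 10.49, 10.35 and 10.46 with the knockdown, 7.66, 7.60 and 7.54 with the empty vector and 9.18, 8.95 and 8.97 in wild-type arrays. The difference from empty vector was 2.83 on the log2 scale (SE 0.09, limma adjusted p = 6.62e-10), a 7.12-fold rise, and the difference from wild-type was 1.40. The knockdown arrays were thus above both controls, and the empty vector arrays below wild-type.

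Ctsd, the aspartic protease cathepsin D, read 10.95, 10.90 and 10.99 with the knockdown and 9.09, 9.01 and 8.81 with the empty vector. It rose 3.94-fold, by 1.98 (SE 0.18, limma adjusted p = 8.36e-06). Wild-type arrays overlapped the empty vector arrays for this gene, at 8.82 to 9.76, and no array of either control reached the knockdown level.

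Hoxb5, a transcription factor that sets position along the body axis, read 10.18, 10.20 and 10.06 with the knockdown. With the empty vector it read 8.49, 8.58 and 8.56, and in wild-type arrays between 7.85 and 8.14. The rise over empty vector was 3.05-fold (log2 difference 1.61, SE 0.09, limma adjusted p = 1.26e-07), and over wild-type it was 2.15 on the log2 scale. The rule required no overlap with empty vector, and the wild-type arrays lay below both other groups.

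A further pair of rises were of membrane transporters of the monocarboxylate family. Slc16a6 read 8.55, 8.73 and 8.80 with the knockdown and 7.79, 6.35 and 6.85 with the empty vector, a 3.25-fold rise. Slc16a9 read 8.21, 8.53 and 8.36 against 6.96, 6.30 and 6.81, a 3.20-fold rise. In both the empty vector arrays were spread more widely than the knockdown arrays. The lack of overlap between the groups was required by the rule for named genes.

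The other named rises ran from 1.53 to 2.22 on the log2 scale. They were Cd300c2 (a leukocyte receptor), the cathepsin genes Ctsb and Ctsl, Thumpd1 (an adaptor for tRNA acetylation), Arrdc3 (an alpha-arrestin), C2 (a complement component), Prrc2c (a stress granule protein), Lipa (lysosomal acid lipase), Map7d1 (a microtubule-associated protein) and Slc40a1 (ferroportin, the cellular iron exporter). For Prrc2c the other probe sets ran from -0.20 to 0.42, and the mean of all was 0.37. For Lipa the mean was 1.05, and 0.52 without _s_at probe sets, for Slc16a9 the mean was 1.10, and C2 stood at 1.05 without _x_at probe sets. Against wild-type, 12 of the 15 named rises were called higher. Slc40a1 went the other way: it was 1.53 above empty vector and 0.53 below wild-type (knockdown minus wild-type -0.53, limma adjusted p = 0.0288), because wild-type arrays stood at 8.97 to 9.60 and empty vector arrays at 7.20 to 7.53. Lipa was 0.21 above wild-type (limma adjusted p = 0.193), and Thumpd1 1.21 above it (limma adjusted p = 0.0525). Thumpd1 also lost its call against empty vector when empty vector replicate 1 or 2 was left out (limma adjusted p = 0.0513 and 0.0503). In 7 of the 15 named rises, empty vector was itself called lower than wild-type, as it was in 5 of the 8 microglial markers. Lying outside the microglial list does not show that a gene is silent in microglia. The part of those cells in the named rises was not tested. Prrc2c had 6 probe sets, of which the 5 not used differed by -0.20 to 0.42, and the second probe set of Ctsl by -0.19.

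The 15 named falls ran from -4.48 to -1.78 on the log2 scale. Pdgfra, the PDGF receptor of oligodendrocyte precursors, read 8.21, 7.78 and 9.71 with the knockdown and 11.35, 10.40 and 11.88 with the empty vector. Olig1, a transcription factor of the same lineage, read 9.95, 9.44 and 10.58 against 12.25, 11.96 and 11.90. Pdgfra fell 6.25-fold and Olig1 4.13-fold, and knockdown replicate 3 was in both the highest of its group. The other 2 probe sets of Pdgfra differed by -1.34 and -0.21, and the mean of all 3 by -1.40.

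Gphn encodes gephyrin, the scaffold that anchors glycine and GABA-A receptors at inhibitory synapses. It read 9.19, 9.16 and 9.32 with the knockdown and 11.55, 11.13 and 11.38 with the empty vector. It fell 4.38-fold (log2 difference -2.13, SE 0.11, limma adjusted p = 4.63e-08). Wild-type arrays read 11.13 to 11.28, inside the empty vector range, and the other 2 probe sets differed by -1.32 and -0.21.

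Mfsd6, a membrane protein of the major facilitator superfamily, read 9.60, 9.61 and 9.67 with the knockdown and 11.50, 11.47 and 11.56 with the empty vector, a 3.68-fold fall. Bcl7c, a subunit of the BAF chromatin remodelling complex, read 8.56, 8.58 and 8.50 against 10.37, 10.27 and 10.55, a 3.60-fold fall. Both groups were tight for these genes, with a gap of over 1 log2 unit between them. The other probe sets differed less, by -0.72 to -0.51 for Mfsd6 and -1.03 to -0.16 for Bcl7c, and the mean of all probe sets by -1.04 and -0.97.

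Acta2, smooth muscle actin, had the largest fall at -4.48 (SE 0.33, limma adjusted p = 1.4e-06), read by 1 of 3 probe sets, while the other 2 differed by -0.16 and -0.06. Jam2, a junctional adhesion molecule, fell by 2.94 and its other 4 probe sets differed by -0.17 or more in the same direction. The remaining named falls were Col5a2 and Col4a5 (collagen chains), Acsl6 (a long-chain acyl-CoA synthetase), Mfsd2a (a carrier of lysophospholipids), Sox6 (a transcription factor of precursors), Pde2a (a cyclic nucleotide phosphodiesterase), Plekhb1 and Ect2 (an exchange factor of cytokinesis), at -2.37 to -1.78. Pde2a was read by an _s_at probe set, and its other 2 differed by -0.28 and -0.11. Without _x_at and _s_at probe sets its difference was -0.28 and was not called (limma adjusted p = 0.104), and that of Acta2 was -0.16 (limma adjusted p = 0.482). With the mean of all probe sets the differences were -1.57 for Acta2, -1.10 for Jam2, -0.73 for Pde2a, -1.22 for Gphn, -1.27 for Sox6 and -1.24 for Col4a5. All 15 named falls were called lower against wild-type too, and empty vector differed from wild-type in none of the 15 at an adjusted p under 0.05.

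**Figure D1:**
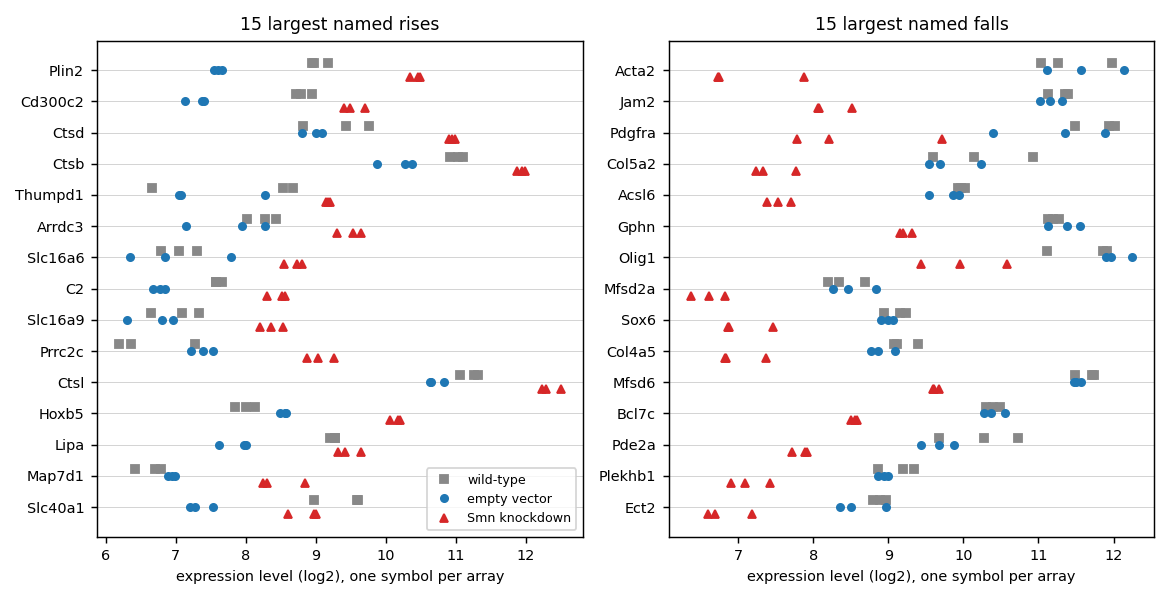
Levels of the 15 largest rises and 15 largest falls outside the interferon and microglial lists (x axis, log2 expression level; 1 symbol per array, 3 arrays per group). Knockdown and empty vector arrays do not overlap in any row, as the rule for naming them required. For Plin2, Cd300c2, Ctsb, C2, Ctsl, Lipa and Slc40a1 the empty vector arrays also lie below wild-type.

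The other functions were read from 75 gene lists. The chart of lists shows how many members of each were called higher or lower beside the shares over all genes. The share called lower passed the background of 15.5% in 53 lists, and the share called higher passed 12.46% in 40, so most lists held calls of both signs. Many lists contain more genes above background than the array as a whole, and such genes were called more often, as given above. A list share somewhat over 12.46% or 15.5% is thus not by itself above that of equally bright genes. Counts against wild-type are to be set beside 15.6% of all genes called higher and 20.4% lower. Members named below were mostly the called ones with the lowest p. A lack of overlap between their groups follows largely from that choice.

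**Figure D2:**
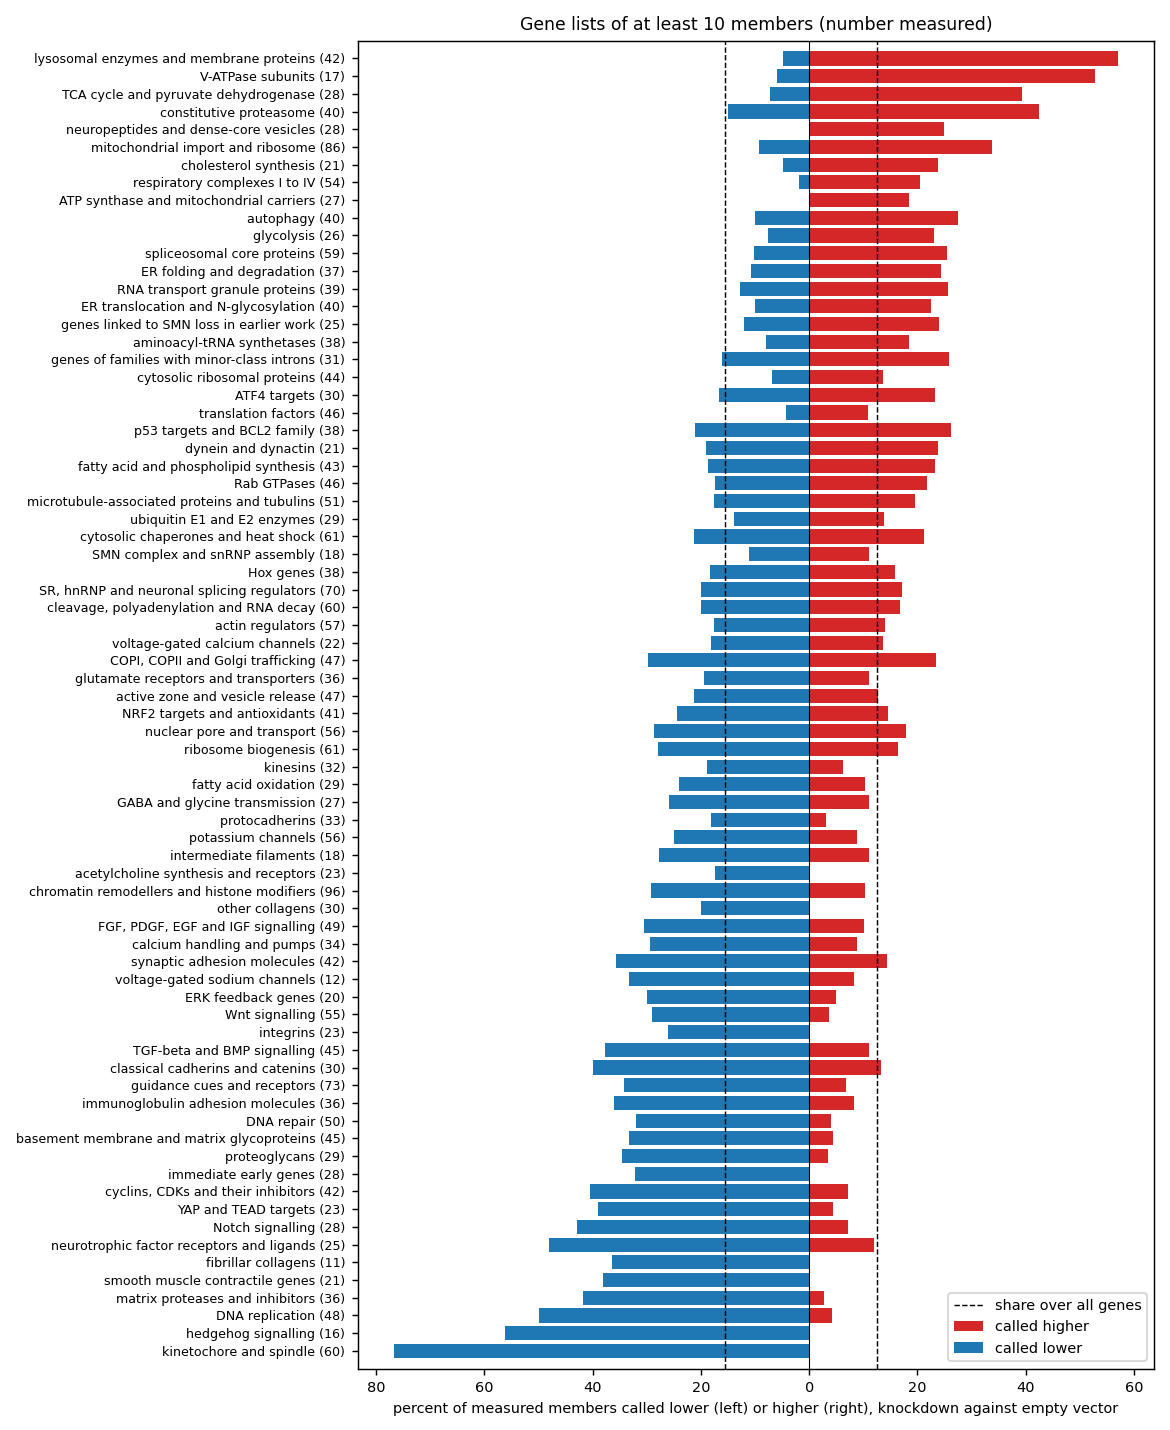
Share of measured members called higher (right, red) or lower (left, blue) in knockdown against empty vector arrays for gene lists of at least 10 members, with the number measured in parentheses and the shares over all 18191 genes as dashed lines (12.46% and 15.5%). Kinetochore and spindle genes have the highest share called lower (76.7%) and lysosomal genes the highest share called higher (57.1%).

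Genes of cell division formed the most one-sided group. Of 60 kinetochore and spindle genes, 46 (76.7%) fell and 0 rose by limma (median -0.84), whereas 15.5% of all genes fell. Of the 46, 21 were above background on all 6 arrays, 15 only in the empty vector group and 10 in neither group. The count was 40 to 43 when any 1 of the 6 arrays was left out, and 48 against wild-type. Empty vector differed from wild-type in none of the 60 by limma.

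Aspm, a spindle pole protein, read 7.11, 6.91 and 7.46 with the knockdown and 8.97, 8.88 and 8.75 with the empty vector (log2 difference -1.70, SE 0.13, limma adjusted p = 1.97e-06). Cenpf, a kinetochore protein, read 7.40, 7.28 and 7.56 against 9.21, 9.35 and 8.89 (-1.74, SE 0.14, limma adjusted p = 2.75e-06). No array of one group reached the other in either gene. Their other probe sets moved less, at -0.31 to 0.07 for Aspm and -0.02 to 0.13 for Cenpf.

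Top2a, the topoisomerase that untangles chromosomes, read 7.84, 7.79 and 8.46 against 9.72, 10.02 and 9.63. It fell 3.39-fold. Mki67, the proliferation marker Ki-67, read 7.11, 7.06 and 7.88 against 9.07, 9.42 and 8.79, a 3.35-fold fall. As for Pdgfra and Olig1, knockdown replicate 3 was the highest of its group in both.

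For Bub1, a kinase of the spindle checkpoint, and Anln, a cytokinesis protein, the knockdown arrays were at or below background. They fell at least 2.34-fold and at least 3.17-fold. Ect2, among the named falls above, fell 3.44-fold.

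Other steps of the cycle fell in part. Of 48 DNA replication genes 24 fell and 2 rose (median -0.34). Orc6, of the origin recognition complex, fell 1.90-fold, Rfc4, of the clamp loader, 1.83-fold, Pola1, a DNA polymerase subunit, 1.89-fold and Gins1, of the replicative helicase, 2.22-fold. Of 42 cyclins, cyclin-dependent kinases and regulators 17 fell and 3 rose. Ccnb2, a mitotic cyclin, fell 2.75-fold and Rbl1, a relative of the retinoblastoma protein, 2.56-fold.

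Cdkn2d, an inhibitor of CDK4 and CDK6, went up in this list: it read 9.54, 9.61 and 9.48 with the knockdown and 8.50, 8.16 and 8.38 with the empty vector. It rose 2.30-fold (log2 difference 1.20, SE 0.11, limma adjusted p = 6.36e-06) and its groups did not overlap. Of 50 DNA repair genes 16 fell and 2 rose. Usp1, a deubiquitinase of the Fanconi pathway, fell 1.81-fold, and the checkpoint kinase gene Chek1 fell 1.78-fold.

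Because the spindle genes moved together, their promoters were searched for the cell cycle homology region, TTTGAA, a short motif known from genes that are switched on late in the cycle. The window ran from 250 bases before to 50 after the RefSeq gene start, and both strands were read. The 5 promoters shown were picked by lowest p among called spindle genes with the motif before the gene start. Genes on a single chromosome were passed over in this choice. Capitals mark TTTGAA or its reverse complement TTCAAA.
Cdca5: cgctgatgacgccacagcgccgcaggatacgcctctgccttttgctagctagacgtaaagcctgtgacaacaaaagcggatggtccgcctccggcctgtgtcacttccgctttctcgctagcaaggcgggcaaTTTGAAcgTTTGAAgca
Ckap2: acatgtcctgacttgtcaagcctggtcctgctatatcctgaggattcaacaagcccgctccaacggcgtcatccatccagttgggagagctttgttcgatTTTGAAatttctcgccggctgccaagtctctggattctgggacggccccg
Top2a: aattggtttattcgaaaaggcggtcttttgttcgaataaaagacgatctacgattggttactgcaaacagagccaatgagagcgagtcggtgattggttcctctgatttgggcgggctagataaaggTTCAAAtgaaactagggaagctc
Smc2: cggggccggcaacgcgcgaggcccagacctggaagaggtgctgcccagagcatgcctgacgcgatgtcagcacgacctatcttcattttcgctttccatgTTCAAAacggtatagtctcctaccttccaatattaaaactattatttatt
Ect2: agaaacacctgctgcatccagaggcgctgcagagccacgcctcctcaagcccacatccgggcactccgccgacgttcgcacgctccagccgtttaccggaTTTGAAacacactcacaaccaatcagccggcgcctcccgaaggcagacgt

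These stretches of 150 bases lie, in GRCm38.p6, at Cdca5 chr19:6084947-6085096 (+ strand), Ckap2 chr8:22185871-22186020 (- strand), Top2a chr11:99024190-99024339 (- strand), Smc2 chr4:52438976-52439125 (+ strand) and Ect2 chr3:27153943-27154092 (- strand), and each sequence is given on the gene's own strand. TTTGAA was found in 36 of the 53 spindle genes with a promoter in the table (67.9%), against 13.3% of all 14450 genes. It was in 27 of the 39 called lower (69.2%) and in 9 of the 14 not called (64.3%). Of 39 DNA replication genes 5 had it (12.8%), and of all 2213 genes called lower 13.6%. The motif was thus frequent in the spindle list whether or not a gene was called, and as frequent among all falls as among all genes. These matches describe letters in a window and nothing about what binds there.

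Genes of signalling pathways that act in precursors of the spinal cord were called lower more often than higher. Hedgehog signalling patterns the ventral spinal cord: the ligand binds Patched, which releases Smoothened and turns on the Gli factors. Of 16 measured hedgehog genes 9 fell and 0 rose (median -0.39), and against wild-type 9 fell and 1 rose. The ligand gene Shh read 8.41, 8.44 and 8.22 with the knockdown and 9.65, 10.77 and 9.87 with the empty vector, a 3.34-fold fall. The groups did not overlap, and the second probe set differed by 0.15.

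Of the receptors and co-receptors, Gas1 read 9.06, 8.86 and 9.29 against 10.51, 10.37 and 10.39, a 2.56-fold fall. Ptch1, the receptor and itself a pathway target, read 11.11, 11.16 and 11.23 against 11.84, 12.19 and 11.94, a 1.77-fold fall. Smo, the transducer, read 7.79, 7.83 and 8.05 against 8.78, 8.63 and 8.78, a 1.79-fold fall. In all 3 genes, picked among the falls, every knockdown array lay below every empty vector array. Hhip, a decoy receptor, fell at least 1.92-fold, the effector Gli2 at least 1.76-fold and the co-receptor Cdon 1.51-fold.

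Notch signalling acts through cell contact and keeps precursors from differentiating. Of its 28 genes 12 fell and 2 rose. The receptor gene Notch1 read 7.70, 7.96 and 8.39 with the knockdown and 9.33, 9.20 and 9.20 with the empty vector, a 2.34-fold fall, and Notch2 fell by 1.39 on the log2 scale. The ligand gene Dll1 fell 1.75-fold, the nuclear effector Rbpj 1.47-fold and the target Hey2 at least 1.72-fold. The genes named, a ligand, receptors, an effector and a target, were picked among the falls, and most of the 28 were not called lower. Hes5, read above as a progenitor marker, stood at -0.28 (limma adjusted p = 0.159).

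Of 55 Wnt genes 16 fell and 2 rose, with the receptor gene Fzd2 down 2.52-fold and the ligand gene Wnt5a down 1.81-fold. Of 45 TGF-beta and BMP genes 17 fell and 5 rose, or 10 fell with the mean of all probe sets and 3 rose without knockdown replicate 1 or 2. Smad2, a signal transducer, fell 2.01-fold, the ubiquitin ligase gene Smurf2 2.14-fold and the antagonist Fst at least 1.51-fold. Tgfbr2, the receptor, was at least 2.32-fold higher than with the empty vector and -0.20 from wild-type (limma adjusted p = 0.422), and the empty vector arrays were the low ones. Of 49 genes of FGF, PDGF, EGF and IGF signalling 15 fell and 5 rose (3 rose without knockdown replicate 1 or empty vector replicate 3), and Igf1, a growth factor of glia and microglia, fell 2.70-fold although its other probe sets ran from -1.19 to 1.46. Of 20 feedback genes of the ERK pathway 6 fell and 1 rose, and among the falls Il17rd fell by 0.90 and Spry1 by 0.82.

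Neurotrophic factors keep motoneurons alive in culture, and CNTF and BDNF were in the medium. Of 25 genes of their receptors and ligands 12 fell and 3 rose. Lifr, a subunit of the CNTF receptor complex, read 8.38, 8.44 and 8.78 with the knockdown and 9.78, 9.78 and 9.75 with the empty vector, a 2.36-fold fall (limma adjusted p = 6.15e-06). Ret, the signalling receptor for GDNF, read 8.64, 8.60 and 8.64 against 9.41, 9.12 and 9.61, a 1.69-fold fall. Sort1, the neurotrophin co-receptor sortilin, fell 1.92-fold and Gfra1, the GDNF-binding subunit, 1.44-fold. Groups did not overlap in any of these 4, which were picked among the falls.

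Stat3, the factor that CNTF receptors activate and also a gene that cytokines induce, read 9.34, 9.40 and 9.71 against 8.70, 8.48 and 8.62. It rose 1.85-fold, though its other probe sets ran from -0.07 to 1.22. Socs2, a feedback inhibitor of cytokine receptors, fell 2.03-fold.

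Of the genes of matrix and contractile proteins a minority passed the test, mostly as falls. Of 11 fibrillar collagen genes 4 fell and 0 rose, of 30 other collagens 6 fell (20%, against 15.5% of all genes) and 0 rose, and of 45 basement membrane and matrix glycoprotein genes 15 fell and 2 rose, or 9 fell without knockdown replicate 1. Vcan, the proteoglycan versican, read 7.64, 7.73 and 8.13 with the knockdown and 9.46, 9.47 and 9.80 with the empty vector, a 3.35-fold fall. Fn1, fibronectin, read 8.82, 9.15 and 9.24 against 10.41, 10.78 and 10.01, a 2.52-fold fall. In both genes, picked among the falls, every knockdown array lay below every empty vector array.

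Of 36 matrix proteases and inhibitors 15 fell and 1 rose, with Adamts9 down 2.33-fold and Adamts12 at least 2.86-fold. Of 29 proteoglycan genes 10 fell and 1 rose: Cspg5, a neuronal proteoglycan, rose 1.70-fold. Of 21 smooth muscle genes 8 fell, Vcl (vinculin) by 2.51-fold, and of 23 integrin and adhesion genes 6 fell, Itgb8 by 2.51-fold. Of 23 targets of YAP and TEAD 9 fell and 1 rose, among them Ajuba at least 3.36-fold. Of the 8 fibroblast and meningeal markers, 7 were not above background on all empty vector arrays, and none was on all knockdown arrays. Single arrays still stood higher: Col3a1 read 8.21 on knockdown replicate 3 and 7.60 on empty vector replicate 3. The part of such cells in the matrix values was not tested.

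Lysosomal genes were called higher more often than lower. Of 42 measured, 24 (57.1%) rose and 2 fell (median 0.60), against 12.46% of all genes called higher. Leaving out any 1 of the 6 arrays gave 22 to 26 rises. Against wild-type 21 rose and 7 fell (median 0.33), and empty vector was itself below wild-type in 9. None of the 42 was on the microglial or interferon lists used here, but microglial markers rose beside them with a median of 2.34. The part of those cells in the lysosomal values was not tested.

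Ctsl, cathepsin L, read 12.24 at the lowest with the knockdown (mean 12.34), 10.65, 10.83 and 10.64 with the empty vector and 11.06, 11.32 and 11.26 in wild-type arrays. It was 1.63 above empty vector (SE 0.10, limma adjusted p = 3.3e-07) and 1.13 above wild-type. Its second probe set differed by -0.19, and the mean of both was 0.72. Ctsb read 11.95, 11.88 and 11.99, against 10.38, 9.88 and 10.27 with the empty vector and 11.10, 10.92 and 11.04 in wild-type arrays. Both genes thus had knockdown highest and empty vector lowest, with no overlap.

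Mcoln1, a calcium channel of the lysosomal membrane, read 9.54, 9.47 and 9.29 with the knockdown and 8.44, 8.33 and 8.16 with the empty vector. It rose 2.18-fold, by 1.12, and it was 1.60 above wild-type, where the empty vector was not the low group. Gla, alpha-galactosidase A, was at least 2.17-fold higher than with the empty vector and 1.20 above wild-type. By contrast Ctsz, cathepsin Z, was at least 3.60-fold above empty vector and 0.43 above wild-type, and Ctsh 1.94 and 0.45. The 2 that fell were Galc, galactosylceramidase, an enzyme of myelin lipid turnover (-0.91, SE 0.09, limma adjusted p = 1.82e-05), and Ids (-0.26, limma adjusted p = 0.0314).

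**Figure D3:**
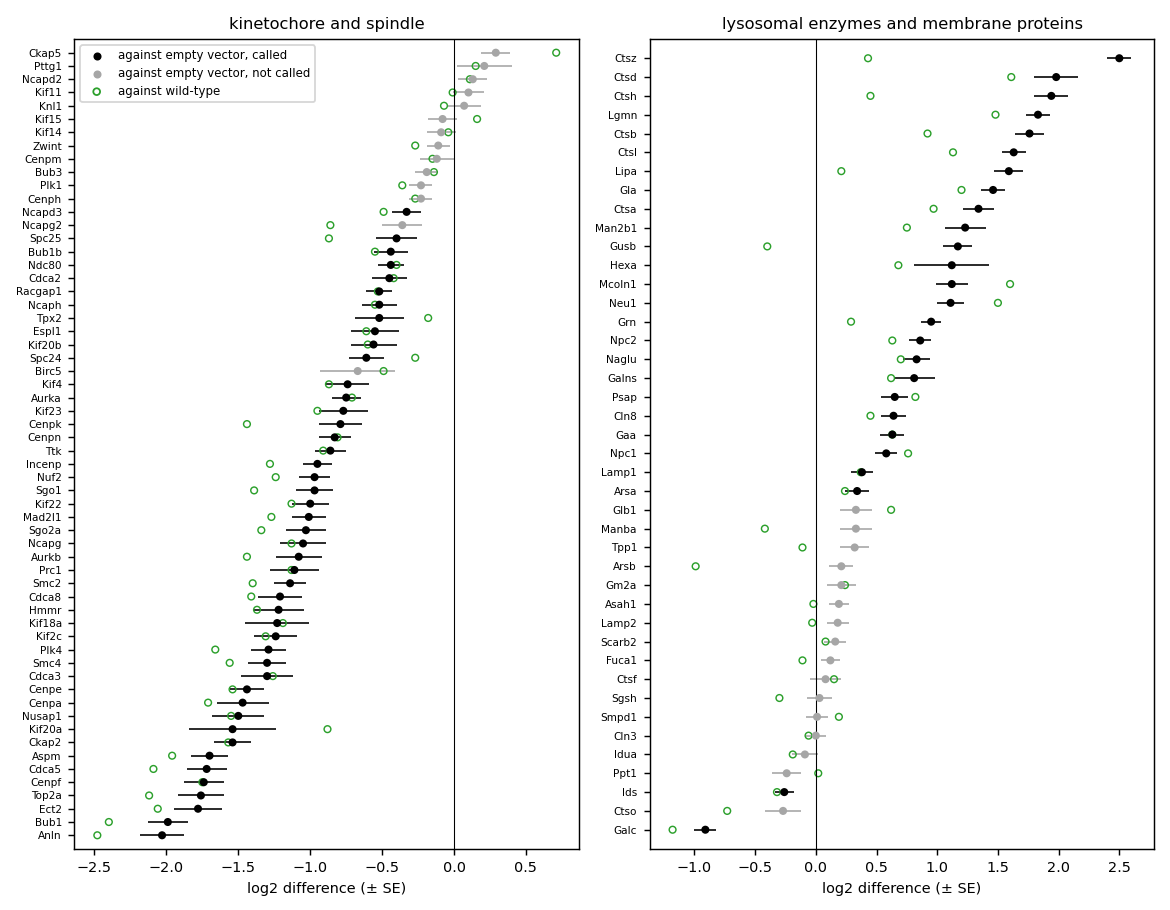
Log2 difference of each measured member of the kinetochore and spindle list (left) and the lysosomal list (right), knockdown minus empty vector (filled, with SE; black where called) and knockdown minus wild-type (open green circles). Anln and Bub1 have the largest falls and Ctsz the largest rise, and for several lysosomal genes such as Ctsz, Ctsh and Gusb the difference from wild-type is far smaller than that from empty vector.

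The V-ATPase pumps protons into lysosomes and synaptic vesicles. Of its 17 genes 9 rose and 1 fell (median 0.29), and 9 rose and 0 fell against wild-type. Atp6v1h read 10.76, 10.79 and 10.77 with the knockdown and 9.98, 9.86 and 9.85 with the empty vector, a 1.85-fold rise. Atp6ap1, an accessory subunit, read 12.11, 12.12 and 11.99 against 11.45, 11.29 and 11.39, a 1.62-fold rise. Empty vector differed from wild-type in none of the 17 by limma. The count of rises was 5 without knockdown replicate 1 or 2 or empty vector replicate 2.

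Lysosomal and V-ATPase genes are known to share an E box, CACGTG, that is read by factors such as TFEB. The 4 promoters shown were picked by lowest p among called genes of both lists with CACGTG before the gene start, and capitals mark it. Genes on the same chromosome as before were passed over.
Ctsl: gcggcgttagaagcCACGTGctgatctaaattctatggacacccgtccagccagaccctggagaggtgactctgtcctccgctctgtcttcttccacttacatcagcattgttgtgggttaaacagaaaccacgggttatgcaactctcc
Gla: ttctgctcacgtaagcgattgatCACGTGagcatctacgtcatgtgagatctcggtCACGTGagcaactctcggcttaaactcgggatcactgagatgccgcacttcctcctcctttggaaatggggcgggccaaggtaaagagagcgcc
Ctsd: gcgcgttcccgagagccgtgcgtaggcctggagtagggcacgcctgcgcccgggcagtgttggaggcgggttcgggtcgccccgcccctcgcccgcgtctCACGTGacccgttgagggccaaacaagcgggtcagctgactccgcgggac
Mcoln1: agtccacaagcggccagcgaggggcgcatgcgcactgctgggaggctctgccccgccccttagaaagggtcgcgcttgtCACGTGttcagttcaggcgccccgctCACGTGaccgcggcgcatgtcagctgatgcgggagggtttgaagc

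These stretches lie, in GRCm38.p6, at Ctsl chr13:64370621-64370770 (- strand), Gla chrX:134601106-134601255 (- strand), Ctsd chr7:142387876-142388025 (- strand) and Mcoln1 chr8:3500369-3500518 (+ strand). CACGTG was found in 11 of 36 lysosomal promoters (30.6%) and 4 of 12 V-ATPase promoters (33.3%), against 9.02% of all 14450. Of 19 lysosomal genes called higher with a promoter in the RefSeq table, 8 had it (42.1%), and of the 17 others 3 (17.6%). Over all 1875 genes called higher the share was 11.5%. The longer form TCACGTGA, which contains CACGTG, was in 3 of 36, 3 of 12 and 1.44% of all. CACGTG reads the same on both strands, and a match describes letters only.

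Other routes of protein turnover rose in part. Of 40 genes of the constitutive proteasome 17 rose and 6 fell (median 0.24), and against wild-type 23 rose and 6 fell. Without knockdown replicate 2 there were 11 rises. Psmc4, a base ATPase, rose 1.64-fold and Psmb6, a catalytic subunit, 1.62-fold, while the assembly genes Psmg1 and Psmd5 fell 1.42-fold and 1.47-fold. Of 40 autophagy genes 11 rose and 4 fell, or 6 rose without knockdown replicate 2. Gabarapl1 and Gabarap, which label autophagosome membranes, rose 2.02-fold and 2.01-fold, and Sqstm1, a cargo receptor, 1.55-fold.

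Genes of mitochondria rose more often than they fell, by small steps. Of 86 mitochondrial import and ribosome genes 29 rose and 8 fell, of 28 TCA cycle genes 11 and 2, of 54 respiratory complex genes 11 and 1, and of 27 ATP synthase and carrier genes 5 and 0. The medians were 0.14 to 0.18. Without knockdown replicate 1 or 2 the import and ribosome list had 17 and 19 rises, and without empty vector replicate 1 or knockdown replicate 2 or 3 it had 5 falls. Respiratory genes had 5 to 7 rises without knockdown replicate 1 or 2 or empty vector replicate 2 or 3. Against wild-type respiratory genes had 22 rises and the ATP synthase list 10. Slc25a22, the mitochondrial glutamate carrier, read 9.16, 9.37 and 9.15 with the knockdown and 8.22, 8.25 and 8.20 with the empty vector, a 2.00-fold rise. Atp5b, the catalytic subunit of ATP synthase, read 11.91, 12.09 and 12.03 against 11.31, 11.05 and 11.01, a 1.85-fold rise. The groups stood apart in both, and Got1, Sdhd and Sdhc of the TCA cycle group rose 1.83-fold, 1.60-fold and 2.02-fold.

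Pkm, pyruvate kinase, rose 2.34-fold among 26 glycolysis genes of which 6 rose and 2 fell. Of 21 cholesterol synthesis genes 5 rose and 1 fell. Without knockdown replicate 1 or 2 there were 3 rises, and against wild-type 11. The fall was Msmo1, a sterol methyl oxidase, by 1.89-fold. The shares called higher for respiratory genes (20.4%), ATP synthase (18.5%) and glycolysis (23.1%) lay closer to the 12.46% of all genes than that of the TCA cycle (39.3%). Of the respiratory genes 53 of 54 were above background, and of the ATP synthase list 26 of 27, and such genes were called more often.

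Of 28 neuropeptide and dense-core vesicle genes 7 rose and 0 fell. Scg2, a granin of dense-core vesicles, read 10.62, 10.69 and 10.52 with the knockdown and 9.77, 9.92 and 9.82 with the empty vector, a 1.71-fold rise. Npy, neuropeptide Y, read 10.29, 10.14 and 10.04 against 9.39, 9.28 and 9.23, a 1.81-fold rise. Nts, neurotensin, rose 1.85-fold and Chgb, another granin, 1.31-fold. The 4 were the called members with the lowest p, so the lack of overlap between their groups follows largely from that choice.

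Genes for cell contact and pathfinding fell more often. Of 73 guidance genes 25 fell and 5 rose, of 42 synaptic adhesion genes 15 and 6, of 36 immunoglobulin adhesion genes 13 and 3 (8 falls with the mean of all probe sets), and of 30 cadherins and catenins 12 and 4. Dcc, the netrin receptor, read 7.75, 7.73 and 7.82 with the knockdown and 9.02, 9.09 and 9.02 with the empty vector, a 2.42-fold fall (limma adjusted p = 4.33e-07). Cdh10, a type II cadherin, read 8.45, 8.40 and 8.54 against 9.86, 9.52 and 9.96, a 2.50-fold fall. Both lay apart by more than the spread of either group.

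Tenm1 and Tenm3 encode teneurins, adhesion proteins that pair across the synapse, and they moved in opposite directions. Tenm3 read 10.99, 11.10 and 10.91 against 9.92, 10.09 and 9.96, a 2.01-fold rise, and Tenm1 10.33, 10.54 and 10.41 against 11.16, 11.35 and 11.32, a 1.81-fold fall. The second probe sets differed by 0.03 for Tenm3 and 0.44 for Tenm1.

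At the synapse itself 10 of 47 active zone and vesicle genes fell and 6 rose (median 0.07), and 6 fell without empty vector replicate 1. All 47 were above background, and 5 fell with the mean of all probe sets. Against wild-type 12 rose and 11 fell, so the list as a whole did not go 1 way. Erc2, a scaffold of the active zone, read 10.33, 10.13 and 10.18 with the knockdown and 11.89, 11.93 and 12.06 with the empty vector, a 3.36-fold fall from a single probe set (log2 difference -1.75, SE 0.10, limma adjusted p = 8.79e-08). Rab3c, a vesicle GTPase, read 8.93, 8.96 and 8.96 against 10.37, 10.41 and 10.33, a 2.67-fold fall, with other probe sets at -0.12 to 0.16. The groups were over 1 log2 unit apart in both. Pclo, piccolo, fell 2.10-fold and Syn3 1.81-fold.

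Of 27 genes of GABA and glycine transmission 7 fell and 3 rose. Beside gephyrin, Slc6a5, the neuronal glycine transporter, read 10.13, 10.21 and 10.12 against 11.04, 10.96 and 11.08, a 1.83-fold fall, and the GABA-A subunit genes Gabrb2 and Gabra5 fell 1.89-fold and 1.58-fold. Of 36 genes of glutamate transmission 7 fell and 4 rose: Grin3a, an NMDA receptor subunit, fell 2.41-fold and Grin2b rose 1.62-fold. Of 56 potassium channel genes 14 fell and 5 rose (3 rose without knockdown replicate 2), of 34 calcium handling genes 10 and 3, of 12 sodium channel genes 4 and 1 (2 falls without knockdown replicate 2), and of 22 calcium channel genes 4 and 3. The share called lower was 18.2% for calcium channels, 19.4% for glutamate transmission, 25% for potassium channels and 25.9% for GABA and glycine transmission. It was 29.4% for calcium handling and 33.3% for sodium channels, against 15.5% of all genes and a larger share of genes above background. Nalcn, the sodium leak channel, fell 1.90-fold and Slc8a1, the sodium-calcium exchanger, 2.09-fold. Of 28 immediate early genes 9 fell and 0 rose (median -0.41). Nr4a3 fell 3.29-fold, although empty vector replicate 2 (9.88) stood well above the other 2 (8.42 and 8.97).

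Transport and cytoskeleton lists held calls of both signs. The share called higher was 6.25% for kinesins, 23.8% for dynein and dynactin and 19.6% for microtubule genes, against 12.46% of all genes. Of 32 kinesins 2 rose and 6 fell, of 21 dynein and dynactin genes 5 and 4, and of 51 microtubule genes 10 and 9, with 6 rises without empty vector replicate 3 or knockdown replicate 2. The 9 falls of that list were 5 without knockdown replicate 1 and 6 without any other of the arrays. Kif5b, a kinesin heavy chain, read 9.92, 9.93 and 10.21 with the knockdown and 8.76, 9.11 and 8.93 with the empty vector, a 2.13-fold rise. Dcx, doublecortin, read 11.25, 11.21 and 11.21 against 12.30, 12.48 and 12.42, a 2.26-fold fall. Actr1a, of dynactin, rose 2.17-fold. Enah, an actin regulator of growth cones, fell 1.93-fold.

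Of 18 genes measured for snRNP assembly, SMN complex subunits included, 2 rose and 2 fell, with differences of at most 0.46 among the 4. Only 1 rise was left without knockdown replicate 1, 2 or 3 or empty vector replicate 1 or 3, and against wild-type there were 5. The 2 falls were 1 or 0 without any 1 of the 6 arrays. Of 59 core spliceosomal genes 15 rose and 6 fell (median 0.01), or 9 rose without empty vector replicate 2 and 8 rose and 3 fell without knockdown replicate 2. Snrpd3, one of the Sm proteins that SMN loads, read 10.21, 10.05 and 9.98 with the knockdown and 9.07, 9.07 and 8.89 with the empty vector, a 2.10-fold rise, with its other probe sets at -0.24 to -0.10. Lsm3 read 9.05, 8.97 and 8.93 against 10.53, 10.22 and 10.41, a 2.65-fold fall. Of 31 genes of families known for minor-class introns, which need snRNPs that SMN also assembles, 8 rose and 5 fell, or 3 fell without knockdown replicate 2.

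Of 25 genes that earlier work linked to SMN loss 6 rose and 3 fell, and 11 rose against wild-type. Pls3, plastin 3, an actin-bundling protein reported to modify spinal muscular atrophy, read 9.10, 9.14 and 9.28 against 10.04, 10.14 and 9.93, a 1.82-fold fall. Cdkn1a, the p53 target p21, read 11.71, 11.72 and 11.62 against 10.99, 11.11 and 10.89, a 1.61-fold rise. Both were picked as called members with the lowest p, and their groups did not overlap. Gap43, a growth cone protein, rose 2.00-fold, and Stau2, a carrier of dendritic RNA, fell 2.23-fold. Among stress genes, Ddit3 and Herpud1 rose 2.10-fold and 1.73-fold, in lists where 7 of 30 ATF4 targets rose and 5 fell and 9 of 37 folding genes rose and 4 fell. Of 61 chaperone genes 13 rose and 13 fell, with Hspa1b down 2.20-fold. Without empty vector replicate 3 or knockdown replicate 2 the folding list had 5 rises and the chaperone list 8. The 5 falls of ATF4 targets were 2 or 3 without empty vector replicate 2 or any knockdown array.

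Malat1, a nuclear noncoding RNA, rose 2.81-fold, but its other probe sets ran from -0.56 to 1.96. Of 96 chromatin genes 28 fell and 10 rose, among them Ezh2, the Polycomb methyltransferase, which fell 1.62-fold. With the mean of all probe sets per gene 11 chromatin genes were called lower. The 10 rises were 5 without empty vector replicate 3 or knockdown replicate 2 and 6 without knockdown replicate 1.

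Hox genes give spinal segments their identity. Of 38 Hox and cofactor genes 6 rose and 7 fell, and 4 fell without knockdown replicate 2 or against wild-type. In the Hoxb cluster Hoxb4, Hoxb5, Hoxb6 and Hoxb9 rose, by 0.74, 1.61, 1.26 and 0.39 on the log2 scale, and Hoxb3 fell by 0.38. Hoxb6 read 9.26, 9.26 and 8.88 with the knockdown and 7.70, 8.02 and 7.90 with the empty vector. In the Hoxc cluster Hoxc6, Hoxc8 and Hoxc10 fell by 0.31, 0.86 and 1.17, and none rose. In the Hoxa cluster Hoxa10 rose by 0.49 and Hoxa11 fell by 0.46, and in the Hoxd cluster Hoxd8 rose by 0.42. Hoxc8 read 9.33, 9.28 and 9.48 against 10.31, 10.17 and 10.18, and Pbx3, a Hox cofactor, fell 2.12-fold. Against wild-type Hoxb5 and Hoxb6 were higher by 2.15 and 1.66, and Hoxc8 and Hoxc10 stood at -1.08 and -0.59. Whether the clusters differ was not tested.

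**Figure D4:**
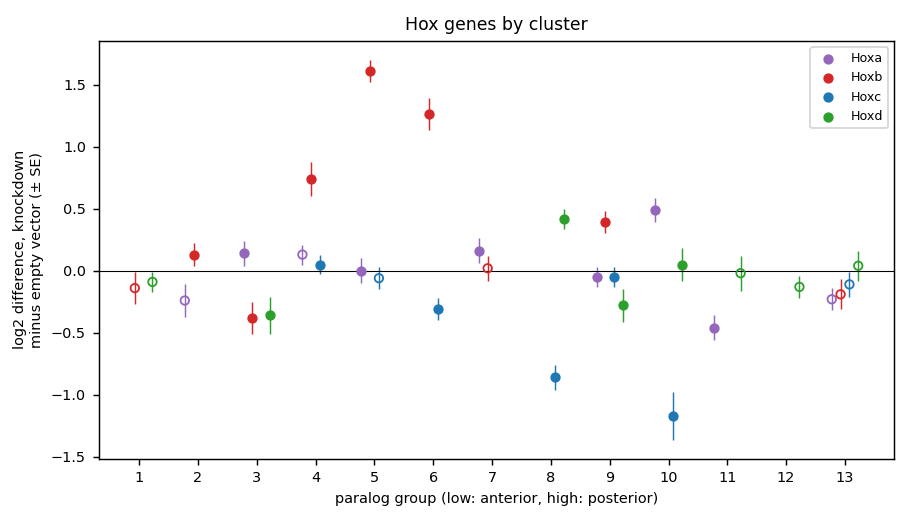
Log2 difference between knockdown and empty vector arrays for each measured Hox gene (y axis, with SE) by paralog group (x axis) and cluster (colour); open circles are genes above background in neither group. Hoxb4 to Hoxb6 stand above 0 and Hoxc8 and Hoxc10 below it, while Hoxa and Hoxd genes lie between -0.46 and 0.49.

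Genes with a long genomic span fell more often than short ones. Span was taken from the RefSeq annotation of GRCm38.p6 for 18140 of the 18191 genes, and genes above background in either group and outside the interferon and microglial lists were divided by span into 10 equal classes. In the shortest class, up to 4.48 kb, 18.0% were called higher and 13.5% lower. In the longest class, over 143 kb, 9.88% were called higher and 37.5% lower, and the median difference was -0.18 against 0.03. The share called lower rose from class to class with 1 small exception, in the fifth.

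Against wild-type the same shares were 25.5% and 17.4% in the shortest class and 13.2% and 43.1% in the longest. For empty vector against wild-type, 0.479% were called lower in the shortest class and 1.34% in the longest. Genes with a single probe set gave 13.6% lower in their shortest and 30.9% in their longest class. Leaving out the synapse, excitability and proliferation lists gave 13.3% and 36.4%. Mean levels with the empty vector were 8.44 in the shortest and 8.94 in the longest class, and the part of level, and of the Gapdh 3' to 5' difference given above, was not tested. Dcc, Erc2, Gphn and Cdh10, described above, all lie in the longest class, with spans of 197 kb (Cdh10) and more.

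**Figure D5:**
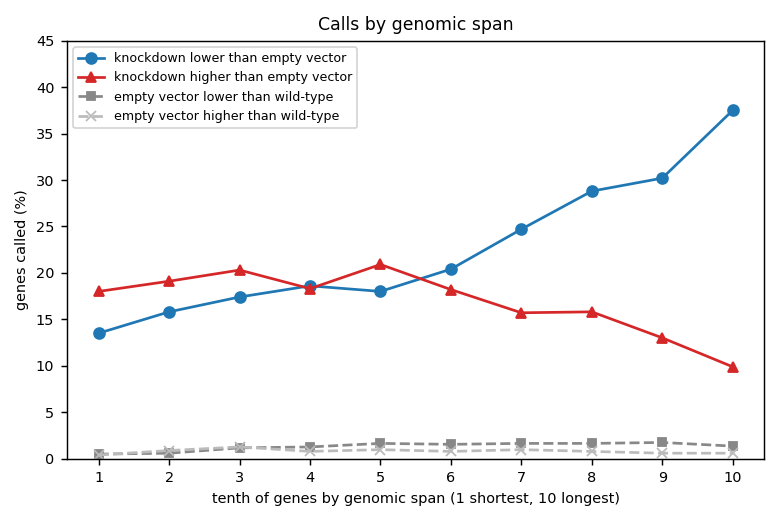
Percent of genes called (y axis) in each class of genomic span (x axis), for knockdown against empty vector (solid) and empty vector against wild-type (dashed), over genes above background and outside the interferon and microglial lists. The share lower with the knockdown climbs from 13.5% to 37.5%, the share higher falls from 18.0% to 9.88%, and the dashed lines stay under 2%.

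In the axonal compartment the same contrast was measured on 3 and 3 other arrays, normalized apart from the somatodendritic ones. A fit to the 9 axonal arrays called 0.176% of genes, and among the 30 named genes it called 1. That gene was Gphn (limma adjusted p = 0.0376), with axonal means of 9.17 with the empty vector and 4.49 with the knockdown. All 3 axonal knockdown arrays were below background, so the axonal fall is at least 4.03-fold, against 4.38-fold in somatodendritic arrays. The interaction, which tests whether the difference between knockdown and empty vector is the same in both compartments, was called for 6.77% of all genes and for 6 of the 30.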

How the data were processed

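The deposited log2 values, made by the authors with software not given in the sources used here, held 45101 probe sets per array. Per the values, the somatodendritic arrays had been brought to 1 distribution. Probe sets naming 1 gene in the platform annotation were kept, and the one with the highest mean over all 18 arrays stood for its gene. Control probe sets (64) and those with missing values (11) were left out. limma 3.58.1 (R 4.3.3; lmFit and eBayes) was fitted to the 9 somatodendritic arrays, with Benjamini-Hochberg adjustment over 18191 genes and a threshold of 0.05. It was tested on simulated data. SE is limma's. The p-values measure the spread between arrays, which may be technical, and 3 arrays per group limit the precision. The titles of knockdown arrays follow another numbering scheme than those of the controls, and whether they were handled apart cannot be told from the labels. Replicate numbers did not pair the controls: same-numbered empty vector and wild-type arrays correlated at 0.23, 0.00 and -0.17 in their deviations.

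Background was the 95th percentile of 147 probe sets for absent tissues, on each array. A gene was above background in a group if it exceeded it on all 3 arrays. "At least" folds compare the bright group with the higher of background and the dim group's values. Named genes were called, did not overlap, were above background on all 6 arrays and lay outside the interferon and microglial lists: the 15 largest rises and falls, plus up to 4 called members of each list described with the lowest p and members whose role the text needed. The members, lists and rules were chosen with earlier results of these data known. Of 3616 list entries, 337 matched no gene. Promoters and spans came from RefSeq (GRCm38.p6), with the first promoter listed per gene. Alternatives were another control group, other sets of arrays, other probe set choices, a background filter, centring, trend and robust settings, a replicate block, and leaving out arrays.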

Additional observations from a re-analysis of the deposited data

Results flagged for a closer look

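For 6 of the 30 named genes the knockdown effect differed between the compartments by the interaction in limma over all 18 arrays (adjusted p under 0.05). The values are the axonal minus the somatodendritic difference between knockdown and empty vector, on the log2 scale. They were 3.31 for Pdgfra (adjusted p = 0.0253), 4.32 for Acsl6 (adjusted p = 0.027), 3.87 for Olig1 (adjusted p = 0.024) and 2.13 for Sox6 (adjusted p = 0.0135). All 4 fell in somatodendritic arrays, while their axonal differences, at 0.66, 2.08, 1.83 and 0.21, did not pass the axonal test. The interaction was -1.12 for C2 (adjusted p = 0.0486) and -2.55 for Gphn (adjusted p = 0.0163). Most of these axonal values were near or below background. Gphn was below it on all 3 axonal knockdown arrays, which bounds its axonal fall at 2.01 or more on the log2 scale, against 2.13 in somatodendritic arrays, so a larger axonal fall is not shown. Pdgfra was below background on all 6 axonal arrays, C2 and Acsl6 were above it on all 3 arrays of neither axonal group, Olig1 only with the knockdown and Sox6 only with the empty vector. The sizes above are fitted values and not measured ones. The compartments were normalized apart.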

How the results depend on the processing

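Higher and lower calls against empty vector stayed within 1.5 times of the reported counts under every alternative run except 1. With all 18 arrays in 1 fit, which shares the spread of the axonal arrays, 85 genes were called higher, 18 lower and, for empty vector against wild-type, 7. Leaving out each array in turn gave 1641 to 2387 higher and 2078 to 2928 lower calls. For empty vector against wild-type (364 calls) it gave 200 to 1408, the highest without wild-type replicate 3. With the replicate block on the control arrays 2383 were called higher, 2940 lower and 485 in the control comparison, and among single genes tried the call was lost for Ncbp1 (adjusted p = 0.0604). Centring on genes above background moved the calls to 2759 higher and 2336 lower. The direction turned for Slc40a1, Nefm and Tgfbr2 against wild-type (-0.53, 0.03 and -0.20), for Eif2s2, Eif6, Gsk3b, Scn8a and Sec63 with the mean of all probe sets (0.10, -0.02, 0.33, -0.06 and 0.04), and for Adgrl3, Dynll2 and Kpnb1 without _x_at and _s_at probe sets (0.10, -0.32 and -0.44). The cause was not tested. Genes near background cannot fall further, which limits their differences.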

Other observations

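Most lists that the text has not yet described held calls of both signs. Over all genes 12.46% were called higher and 15.5% lower, and the shares among genes above background were larger. Of 39 proteins of RNA transport granules 10 rose and 5 fell, among them Fxr1 (0.61 up) and Elavl1 (fell by 0.99). Of 46 Rab GTPases 10 rose and 8 fell, with Rab14 down 1.59-fold and Rab23 1.54-fold. Of 47 genes of COPI, COPII and Golgi trafficking 11 rose and 14 fell: Lman1, a cargo receptor, fell 1.96-fold and its relative Lman2 rose 1.84-fold. Of 40 genes of translocation and N-glycosylation 9 rose and 4 fell. Of 57 actin regulators 8 rose and 10 fell, and of 18 intermediate filament genes 2 rose (Ina, internexin, by 0.62) and 5 fell (Nefl, the light neurofilament, by 0.46). Against wild-type 17 actin regulators rose and 11 fell, 13 and 12 of the COPI, COPII and Golgi list, and 9 and 10 Rab GTPases.

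Of 38 p53 targets and BCL2 family genes 10 rose and 8 fell, with Bcl2, which protects from apoptosis, down 1.89-fold and Aen, a p53-induced nuclease, up 1.77-fold. Of 41 antioxidant genes 6 rose and 10 fell, with Hmox1 up 1.55-fold. Of 38 aminoacyl-tRNA synthetase genes 7 rose and 3 fell. Of 43 genes of fatty acid and phospholipid synthesis 10 rose and 8 fell, and of 29 of fatty acid oxidation 3 rose and 7 fell. Of 29 ubiquitin E1 and E2 genes 4 rose and 4 fell.

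Of 70 splicing regulators 12 rose and 14 fell: Rbfox1, a neuronal splicing factor, read 10.58, 10.43 and 10.48 with the knockdown and 11.67, 11.74 and 11.78 with the empty vector, and fell 2.36-fold. Of 60 genes of RNA cleavage and decay 10 rose and 12 fell, of 56 of nuclear transport 10 and 16, of 61 of ribosome biogenesis 10 and 17, of 44 ribosomal proteins 6 and 3, and of 46 translation factors 5 and 2. Against wild-type 22 genes of ribosome biogenesis rose and 14 fell, and 14 and 13 of RNA cleavage and decay. Of 33 protocadherins 1 rose and 6 fell, of 23 genes of acetylcholine synthesis and receptors 0 rose and 4 fell, and of 9 nuclear noncoding RNAs 4 rose and 1 fell. Among called genes outside the interferon and microglial lists that had another probe set above background, all other such probe sets had the same sign in 71.6% of 718 rises and 69.2% of 921 falls, and another was called in the opposite direction in 7.94% and 10.7%.

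Leaving out 1 array moved several of these counts by over 1.5 times. Rab GTPases had 6 rises without knockdown replicate 1 or empty vector replicate 3, the p53 and BCL2 list 6 rises without empty vector replicate 2, and fatty acid and phospholipid synthesis 6 rises without knockdown replicate 1 or 2 or empty vector replicate 3. Falls in fatty acid oxidation numbered 3 without knockdown replicate 2 and 4 without empty vector replicate 1, and those of intermediate filaments 3 without knockdown replicate 1 or 2. Ribosome biogenesis had 9 or 10 falls and acetylcholine genes 1 or 2 without any knockdown array in turn or empty vector replicate 1 or 3. Ribosomal proteins had 3 rises without knockdown replicate 1 or 2 or empty vector replicate 2 or 3, and translation factors 3 without knockdown replicate 1 or 2. Antioxidant genes had 2 rises without empty vector replicate 3 and 3 without knockdown replicate 1. RNA cleavage and decay genes had 5 or 6 rises without empty vector replicate 1 or any knockdown array, and RNA granule genes 3 falls without empty vector replicate 3 or knockdown replicate 2. List counts under 5 are not followed here.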
